A study of Mus musculus with 18 samples.

Results

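The genes described here are 8 of the 46257 gene IDs in a mouse mammary gland RNA-seq table, named by symbol for glucose uptake and lactose synthesis. They were Slc2a1, Hk1, Hk2, Ugp2, Galk1, Slc35a2, B4galt1 and Folr1, and each was read from its own row. 7 of them act in handling glucose or galactose, whereas Folr1 encodes a folate receptor and has no known step in lactose synthesis, so it is described by its own values. All 8 passed the filter on low values, which asked for a scaled read count of at least 10 in at least 2 libraries.

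The RNA came from sorted mammary cells of mice that all carried the ERrtTA, TetOCre and rosaYFP alleles, a tetracycline-controlled Cre recombinase with a fluorescent reporter. Basal, ER+ luminal and ER- luminal cells were taken at puberty, in adulthood and at mid pregnancy, which gives 9 groups of 2 libraries each and 18 libraries in all. ER stands for the estrogen receptor. No source used here gives the sort gates, the ages or whether doxycycline was given, and the labels do not say that the libraries of a group came from separate animals, so the p-values below measure only the spread between these libraries.

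Lactose, the main sugar of milk, is made in the Golgi of luminal cells. Glucose enters through transporters of which GLUT1, encoded by Slc2a1, is the main one in mammary epithelium, and hexokinases trap it as glucose 6-phosphate. From there UDP-glucose and then UDP-galactose are formed, a transporter carries UDP-galactose into the Golgi, and lactose synthase joins galactose to free glucose. Lactose synthase is a complex of the galactosyltransferase encoded by B4galt1, which is present in most tissues, and α-lactalbumin, encoded by Lalba, which is made in the mammary gland and switches the enzyme to glucose as its acceptor.

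The promoter windows of B4galt1 and Hk2 are shown because these were the members that rose in ER- luminal cells in pregnancy against both earlier stages. Each holds the 250 bases before the RefSeq start site, on the gene's own strand in GRCm38.p6, and the RefSeq table matched 7 of the 8 genes.
B4galt1: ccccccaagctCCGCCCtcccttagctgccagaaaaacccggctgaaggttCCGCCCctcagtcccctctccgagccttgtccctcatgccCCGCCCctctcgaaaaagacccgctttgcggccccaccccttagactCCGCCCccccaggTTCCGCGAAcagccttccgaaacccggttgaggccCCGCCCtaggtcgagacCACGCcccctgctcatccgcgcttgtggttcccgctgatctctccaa
Hk2: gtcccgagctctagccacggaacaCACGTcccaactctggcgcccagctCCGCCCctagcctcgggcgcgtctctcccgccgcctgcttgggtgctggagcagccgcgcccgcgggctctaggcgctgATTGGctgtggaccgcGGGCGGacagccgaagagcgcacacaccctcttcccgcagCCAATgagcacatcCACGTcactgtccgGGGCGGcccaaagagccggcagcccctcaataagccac
The B4galt1 window lies on the minus strand at chr4:40853985-40854234 and the Hk2 window on the minus strand at chr6:82774455-82774704. Capitals mark matches on either strand to TTCNNNGAA (the core read by STAT5), ACGTG and GCGTG (cores read by hypoxia-inducible factors), CCGCCC (a GC box) and CCAAT. The B4galt1 window held 1 match to TTCNNNGAA, 1 to GCGTG and 5 to CCGCCC. The Hk2 window held 2 matches to ACGTG, 3 to CCGCCC and 2 to CCAAT. Among 32851 windows of the same length, TTCNNNGAA occurred in 7.02%, ACGTG in 16.6%, GCGTG in 28.2%, CCGCCC in 32.7% and CCAAT in 33.8%. The windows were rich in G and C, at 66.4% for B4galt1 and 69.6% for Hk2 against a median of 52.4% over all windows. A match is a description of the letters and not a binding site.

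Levels are given as the authors' scaled read counts, which sum to between 19841695 and 19897395 in every library, so that values can be compared between libraries as shares of nearly the same total. The reads behind them were recovered from the steps between low values and numbered 7674857 to 11292240 in puberty libraries, 2406226 to 7900562 in adult libraries and 5280348 to 6363534 in pregnancy libraries. The adult luminal libraries were the shallowest, at 2406226 to 3165238 reads. Sorted populations carried their defining markers, with summed basal markers of 141611 to 311384 in basal libraries and at most 38186 in luminal ones. In pregnancy the ER+ luminal libraries held, in sum, more ER- luminal and fewer ER+ luminal marker counts than at puberty. The 6 ER- luminal markers summed to 18197 and 42132 in pregnancy ER+ libraries, against 5467 to 8749 in puberty ER+ libraries. The 8 ER+ luminal markers summed to 82803 and 32986 in pregnancy ER+ libraries, against 172667 and 217069 at puberty. Prlr was the largest part of these sums, at 39380 and 15215 in pregnancy, against 104892 and 125402 at puberty. Esr1, Pgr, Foxa1 and Areg were also lower in both pregnancy libraries. Wnt4 (7596 and 3578, against 5013 and 6823 at puberty), Cited1 and Prom1 overlapped between the stages. In ER- luminal libraries the summed ER+ luminal markers were lowest in pregnancy, at 6618 and 7671. The sums were 17932 to 21346 at puberty and 34842 to 46033 in adults. Within this list Wnt4 ran the other way against puberty, at 616 and 999 in pregnancy and 544 and 444 at puberty. Library 2 of pregnancy ER- luminal cells stood apart, with 0.615% of its total in mitochondrial genes against 1.88% to 7.07% in the other libraries and 6.76% in its top 50 genes against 13.8% to 19.9%. Apart from counts of cell type markers, called differences that use it are therefore also given without it, by their value, their adjusted p or a count of those still called. Since these are bulk libraries, fewer cells of a type and less RNA per cell cannot be told apart.

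**Figure D1:**
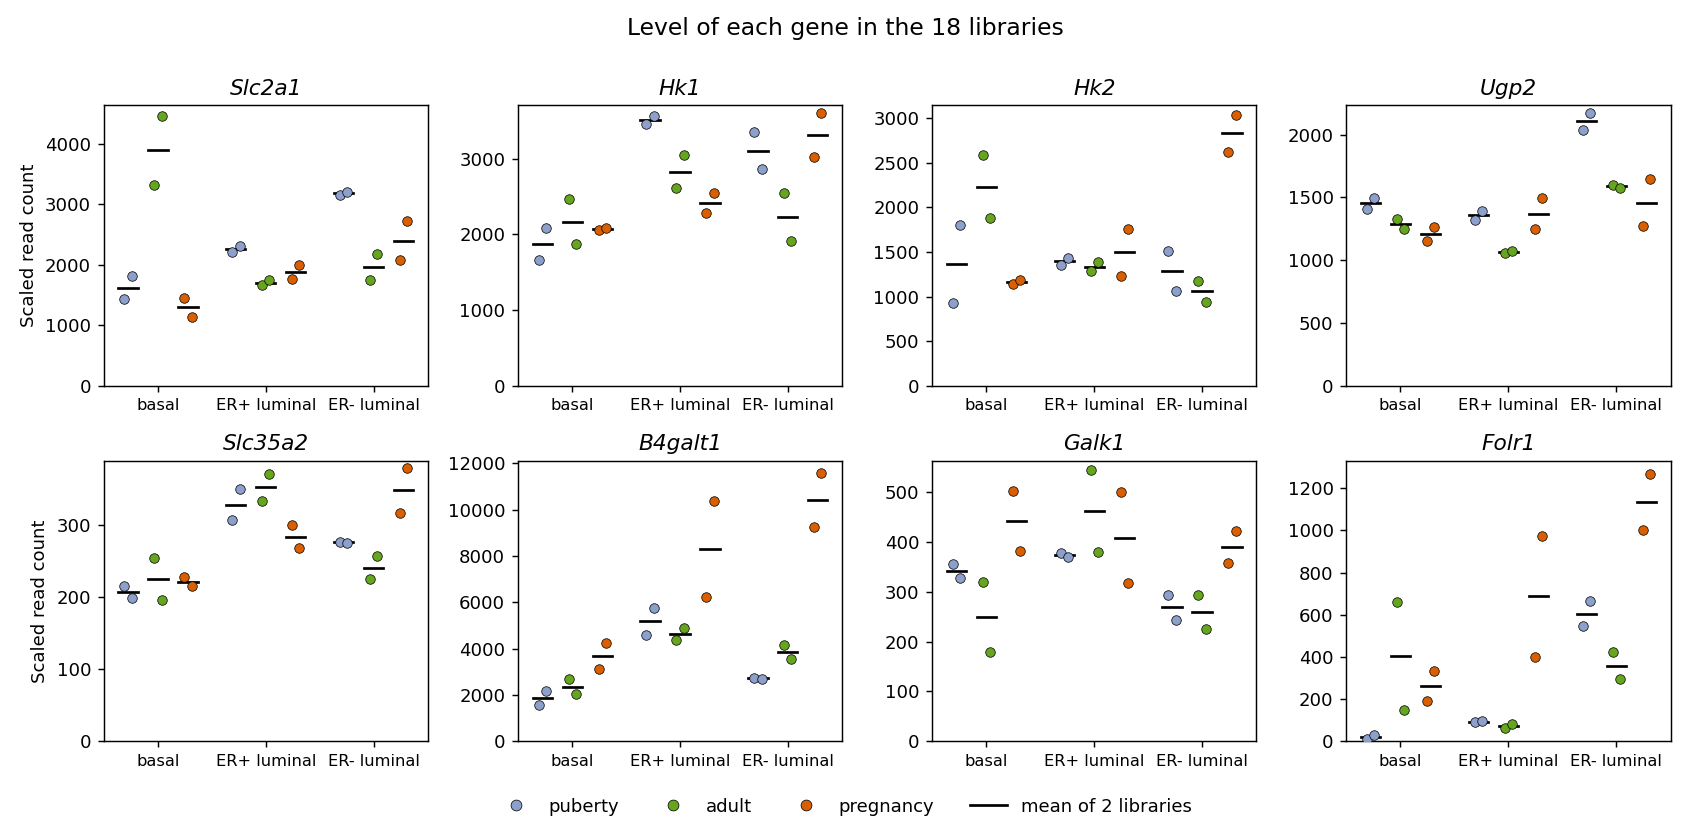
Scaled read count (vertical axis, from 0) of each of the 8 genes in the 18 libraries, with basal, ER+ luminal and ER- luminal cells along the horizontal axis and the stage by colour. Points are libraries and bars the mean of 2. B4galt1 was highest in pregnancy ER- luminal cells (9266 and 11599) and Slc2a1 in adult basal cells (3321 and 4463). Over the libraries Slc35a2 ran from 197 to 380 and Galk1 from 179 to 543.

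Per kilobase of exon, the median level over the 18 libraries was highest for B4galt1 at 995.65, followed by Slc2a1 at 580.7, Ugp2 at 443.0 and Hk1 at 298.6. Galk1 at 253.2, Hk2 at 229.95 and Folr1 at 137.1 came next, and Slc35a2 was lowest at 57.65. The genes also differed in how widely they ranged across the groups. The highest group mean of scaled read counts was 55.27 times the lowest for Folr1, whose lowest group held 13 and 28, 5.59 times for B4galt1, 3.01 times for Slc2a1 and 2.67 times for Hk2, and between 1.70 and 1.98 times for Slc35a2, Galk1, Hk1 and Ugp2. Neither Galk1 nor Slc35a2 was called in any of the 15 comparisons of groups or the 4 comparisons of effects between populations. Other settings called each of them in 2 comparisons, Galk1 for example in ER+ against ER- luminal cells of adults with quantile normalization (0.86, limma adjusted p = 0.0459) and Slc35a2 in basal against ER- luminal cells of pregnancy with a minimum of 100 (-0.64, limma adjusted p = 0.0339).

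Differences were tested with limma on log2(scaled read count + 1) across 22315 genes, with p-values adjusted by the Benjamini-Hochberg method over all of them and a threshold of 0.05. A fold change on this scale understates the change of the lowest genes. In pregnancy ER- luminal cells against puberty ER- luminal cells, 3 of the 8 genes were called (B4galt1 and Hk2 higher, Ugp2 lower), where 14.8% of all genes were. Against adult ER- luminal cells 3 were called (B4galt1, Hk2 and Hk1, all higher), where 14.4% of all genes were. In ER+ luminal cells, 1 gene was called in pregnancy against puberty (Folr1, with 13.1% of all genes called) and 2 in pregnancy against adulthood (B4galt1 and Folr1, with 17.9%). In basal cells, 2 were called in pregnancy against puberty (B4galt1 and Folr1, with 2.07%) and 1 in pregnancy against adulthood (Slc2a1, with 7.26%). The median log2 fold change of the 8 genes in pregnancy against puberty ER- luminal cells was 0.43, against 0.03 over all genes tested. The 3 stage comparisons of a population share libraries, so they are not independent of each other.

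Slc2a1 (chromosome 4, 119108711 to 119137983, plus strand, GRCm38) encodes GLUT1, which lets glucose cross the plasma membrane down its gradient. Its levels in basal cells were 1433 and 1810 at puberty, 3321 and 4463 in adults and 1456 and 1133 in pregnancy. Those in ER+ luminal cells were 2211 and 2300 at puberty, 1660 and 1741 in adults and 1759 and 1996 in pregnancy. Those in ER- luminal cells were 3154 and 3205 at puberty, 1745 and 2174 in adults and 2076 and 2719 in pregnancy. Both adult basal libraries lay above every other library, and neither luminal population had its highest level in pregnancy. Ordered by group mean, adult basal cells (3892 ± 807.5, SD, n = 2) came first, puberty ER- luminal cells (3179.5 ± 36.1) next and pregnancy basal cells (1294.5 ± 228.4) last.

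Pregnancy basal cells had less Slc2a1 than adult basal cells by a log2 fold change of -1.58 ± 0.19 (SE, limma adjusted p = 0.000381), and puberty basal cells also had less than adult ones, at -1.26 ± 0.19 (limma adjusted p = 0.00145). Both calls held when any library of the compared groups was left out. In ER- luminal cells both pregnancy libraries lay below both puberty ones (2397.5 against 3179.5 on average), a difference that limma did not call (-0.42 ± 0.19, adjusted p = 0.159) and edgeR did (-0.58, adjusted p = 0.0406). The pregnancy level there was not shown to differ from adulthood (0.29 ± 0.19, limma adjusted p = 0.339). The effect of pregnancy against adulthood differed between the populations, with basal minus ER- luminal at -1.87 ± 0.27 (limma adjusted p = 0.00226). Without library 2 of pregnancy ER- luminal cells this difference was -1.67 (limma adjusted p = 0.0224). Of the 8 genes 2 were called in that comparison of effects (Slc2a1 and Hk2), where 1.98% of all genes were.

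Between populations of a stage, basal cells had less Slc2a1 than ER- luminal cells at puberty (-0.98 ± 0.19, limma adjusted p = 0.00189) and in pregnancy (-0.89 ± 0.19, limma adjusted p = 0.00555). In adults basal cells had more (0.98 ± 0.19, limma adjusted p = 0.00278). The pregnancy call ended without library 2 of pregnancy ER- luminal cells (limma adjusted p = 0.0893) or library 2 of pregnancy basal cells (limma adjusted p = 0.0729), and the adult one in a fit of those groups alone (limma adjusted p = 0.0847). 6 endothelial markers summed to 8134 and 10503 in adult basal cells, against 354 to 528 in adult ER- luminal cells. Their sums were 4336 and 3650 in pregnancy basal cells and 6615 and 11200 in puberty basal cells. Other markers moved between basal groups as well, with basal markers at 308176 and 305543 in pregnancy basal cells, against 154364 and 141611 in adult ones, and 5 fibroblast markers at 137067 and 126127, against 13055 and 8154. In puberty basal cells these sums were 311384 and 266545 for basal and 49889 and 51567 for fibroblast markers. Milk protein markers summed to 223696 and 34044 in adult basal cells, 228528 and 322362 in pregnancy and 3435 and 4057 at puberty. ER- luminal markers summed to 20747 and 9940 in adult basal cells, 11529 and 18333 in pregnancy and 1748 and 3884 at puberty. The part of these cells in the Slc2a1 and Hk2 levels of basal cells was not tested. An exon of Slc2a1 overlaps the antisense gene Gm12868, which had 9 to 146 scaled reads, and without stated strand the reads of the overlap cannot be told apart.

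Hk1 (chromosome 10, 62268855 to 62379908, minus strand) and Hk2 (chromosome 6, 82725025 to 82774454, minus strand) encode hexokinases, which phosphorylate glucose and so keep it in the cell; Hk1 is the form found in most tissues and Hk2 the inducible one. Hk2 in ER- luminal cells stood at 1511 and 1067 at puberty, 1180 and 940 in adults and 2625 and 3038 in pregnancy. The pregnancy ER- libraries were the 2 highest of all 18. ER+ luminal cells had Hk2 at 1359 and 1433 at puberty, 1288 and 1386 in adults and 1232 and 1760 in pregnancy, and the stages overlapped there. In basal cells it was 925 and 1807 at puberty, 2583 and 1880 in adults and 1143 and 1186 in pregnancy, with adults highest. By group mean, pregnancy ER- luminal cells (2831.5 ± 292.0, SD, n = 2) and then adult basal cells (2231.5 ± 497.1) stood clear of the rest, and from pregnancy ER+ luminal cells (1496.0 ± 373.4) down to adult ER- luminal cells (1060.0 ± 169.7) each group overlapped the next.

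Hk2 rose in pregnancy ER- luminal cells, by 1.15 ± 0.27 on the log2 scale over puberty (limma adjusted p = 0.0116) and by 1.42 ± 0.27 over adulthood (limma adjusted p = 0.00443). The call over puberty ended without library 2 of puberty ER- luminal cells (limma adjusted p = 0.146) or library 2 of pregnancy ER- luminal cells (1.05, limma adjusted p = 0.106). The call over adulthood ended without library 2 of adult (limma adjusted p = 0.0548) or of pregnancy ER- luminal cells (1.32, limma adjusted p = 0.0568). Pregnancy basal cells stood below adult ones without passing the threshold (-0.92 ± 0.27, limma adjusted p = 0.0544), while the sums of basal and fibroblast markers differed between these groups as given for Slc2a1. That difference was called with a pseudocount of 8 (limma adjusted p = 0.0422), a minimum of 100 (limma adjusted p = 0.0475) and quantile normalization (limma adjusted p = 0.0403). The effect of pregnancy against adulthood differed between basal and ER- luminal cells, at -2.34 ± 0.39 for basal minus ER- luminal (limma adjusted p = 0.00648), and at -2.24 without library 2 of pregnancy ER- luminal cells (limma adjusted p = 0.048).

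The order of the populations for Hk2 turned round between stages. Adult basal cells had more Hk2 than adult ER- luminal cells (1.06 ± 0.27, limma adjusted p = 0.0152), whereas pregnancy basal cells had less than pregnancy ER- luminal cells (-1.28 ± 0.27, limma adjusted p = 0.00533). The adult call ended without library 2 of adult ER- luminal cells (limma adjusted p = 0.103), without library 1 of adult basal cells (limma adjusted p = 0.0996) and in a fit of those groups alone (limma adjusted p = 0.0838). The pregnancy call ended without library 2 of pregnancy ER- luminal cells (limma adjusted p = 0.0686) or library 1 of pregnancy basal cells (limma adjusted p = 0.0544). At puberty the populations were close, with 0.03 ± 0.27 for basal against ER- luminal cells (limma adjusted p = 0.977).

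Hk1 had a narrower range of group means than Hk2. It stood at 3345 and 2865 in ER- luminal cells at puberty, 2550 and 1918 in adults and 3022 and 3605 in pregnancy, and in ER+ luminal cells at 3460 and 3567 at puberty, 2607 and 3044 in adults and 2277 and 2545 in pregnancy. Basal cells had 1666 and 2083 at puberty, 2462 and 1875 in adults and 2055 and 2080 in pregnancy, and the basal libraries were among the lowest of the 18. In pregnancy ER- luminal cells it rose over adult ER- luminal cells by 0.58 ± 0.18 (limma adjusted p = 0.0451), a call that ended under 5 other settings, for example at an adjusted p of 0.0745 with edgeR, and without library 2 of adult (limma adjusted p = 0.332), library 1 of pregnancy (limma adjusted p = 0.0526) or library 2 of pregnancy ER- luminal cells (limma adjusted p = 0.259). Pregnancy ER+ luminal cells had a lower level than puberty ones, without passing the threshold in limma (-0.55 ± 0.18, adjusted p = 0.0616), and the groups did not overlap. The same difference was called by edgeR (-0.65, adjusted p = 0.0171), with median-ratio size factors (limma adjusted p = 0.0203) and with a minimum of 100 (limma adjusted p = 0.0445).

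Basal cells had less Hk1 than ER- luminal cells at puberty (-0.73 ± 0.18, limma adjusted p = 0.00981) and in pregnancy (-0.67 ± 0.18, limma adjusted p = 0.0181). The puberty call ended without library 1 of puberty ER- luminal (limma adjusted p = 0.0971) or of puberty basal cells (limma adjusted p = 0.129). The pregnancy call ended with median-ratio size factors (limma adjusted p = 0.0908), with edgeR (adjusted p = 0.0799), and without library 2 of pregnancy ER- luminal cells (limma adjusted p = 0.173), library 1 of pregnancy basal cells (limma adjusted p = 0.11) or library 2 of pregnancy basal cells (limma adjusted p = 0.0818). Hk1 shares exon sequence with the antisense gene Hk1os, which had 5 to 66 scaled reads.

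**Figure D2:**
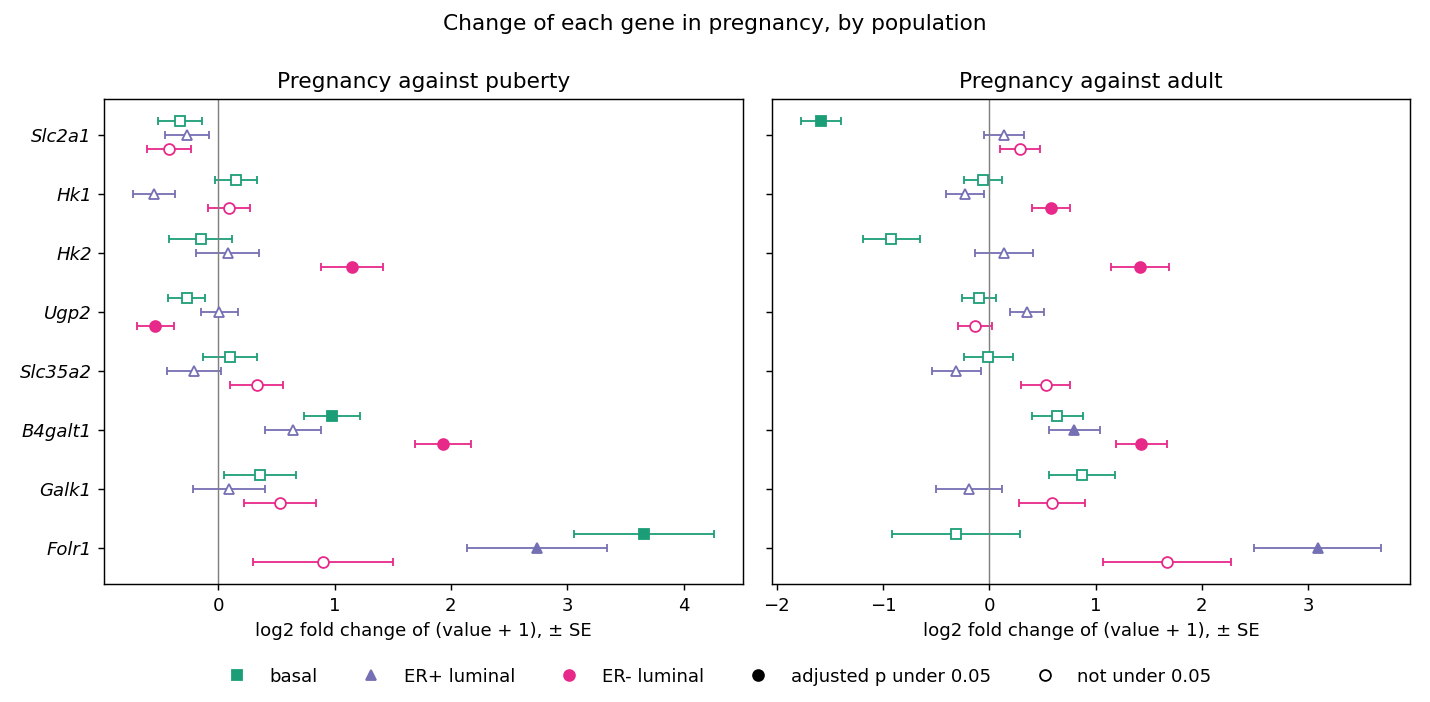
Log2 fold change of each gene in pregnancy against puberty (left) and against adulthood (right), with the standard error of the limma fit, by population. Filled symbols have an adjusted p under 0.05. B4galt1 and Hk2 are filled for ER- luminal cells in both panels, at 1.93 and 1.43 for B4galt1 and 1.15 and 1.42 for Hk2, while Slc2a1 is filled for basal cells against adulthood at -1.58.

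Ugp2 (chromosome 11, 21321138 to 21371201, minus strand) encodes the enzyme that makes UDP-glucose, the donor for glycogen and the precursor of UDP-galactose. Its level in ER- luminal cells was 2041 and 2177 at puberty, 1602 and 1573 in adults and 1272 and 1645 in pregnancy. The ER+ luminal cells had 1323 and 1392 at puberty, 1055 and 1073 in adults and 1245 and 1492 in pregnancy, and basal cells had 1412 and 1492 at puberty, 1327 and 1252 in adults and 1150 and 1262 in pregnancy. The puberty ER- libraries were the 2 highest of the 18, and in pregnancy the ER+ libraries overlapped those of both other populations. Adult ER+ luminal cells had the lowest mean (1064 ± 12.7), below all other groups, while between adult ER- luminal and pregnancy basal cells each group overlapped the next in order.

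Ugp2 fell in pregnancy against puberty ER- luminal cells, by -0.54 ± 0.16 on the log2 scale (limma adjusted p = 0.0285). That call ended without library 1 (limma adjusted p = 0.0854) or library 2 of puberty ER- luminal cells (limma adjusted p = 0.193), without library 1 of pregnancy ER- luminal cells (limma adjusted p = 0.164) and in a fit of those groups alone (limma adjusted p = 0.0991). Without library 2 of pregnancy ER- luminal cells it was -0.73 (limma adjusted p = 0.0224). ER+ luminal cells had less Ugp2 than ER- luminal cells at puberty (-0.63 ± 0.16, limma adjusted p = 0.0123) and in adults (-0.58 ± 0.16, limma adjusted p = 0.0189), but in pregnancy the difference was -0.09 ± 0.16 (limma adjusted p = 0.869). Basal cells had less than ER- luminal cells at puberty (-0.54 ± 0.16, limma adjusted p = 0.0239). Each of these 3 population calls ended when any single library of the compared groups was left out, with adjusted p between 0.0533 and 0.118 for the first, 0.0635 and 0.0761 for the second and 0.0756 and 0.171 for the third. The second also ended in a fit of those groups alone (limma adjusted p = 0.0895). The antisense gene Gm12043 shares exon sequence with Ugp2 and had 0 to 32 scaled reads.

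Galk1 (chromosome 11, 116008457 to 116012719, minus strand) encodes galactokinase, the entry of free galactose into the Leloir pathway. Its level in ER- luminal cells was 294 and 244 at puberty, 294 and 226 in adults and 357 and 421 in pregnancy. ER+ luminal cells had 378 and 370 at puberty, 543 and 380 in adults and 499 and 317 in pregnancy, and basal cells had 355 and 328 at puberty, 320 and 179 in adults and 501 and 381 in pregnancy. The pregnancy ER- libraries lay above the 4 earlier ER- libraries, but the increase did not pass the threshold over puberty (0.53 ± 0.31, limma adjusted p = 0.271) or over adulthood (0.59 ± 0.31, limma adjusted p = 0.214). Its values rested on 36 to 198 recovered reads per library.

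Slc35a2 (chromosome X, 7884028 to 7894492, plus strand) encodes the carrier that brings UDP-galactose into the Golgi, where lactose is made. Its level in ER- luminal cells was 277 and 276 at puberty, 225 and 257 in adults and 317 and 380 in pregnancy. ER+ luminal cells had 307 and 350 at puberty, 334 and 372 in adults and 300 and 269 in pregnancy, and basal cells had 216 and 199 at puberty, 254 and 197 in adults and 228 and 216 in pregnancy. The pregnancy ER- libraries were again above the earlier ER- ones, without a call over puberty (0.33 ± 0.23, limma adjusted p = 0.379) or adulthood (0.53 ± 0.23, limma adjusted p = 0.133). Pregnancy basal cells had a lower level than pregnancy ER- luminal cells, short of the threshold (-0.64 ± 0.23, limma adjusted p = 0.0631). With 33 to 161 recovered reads per library, it was the thinnest of the 7 genes of glucose and galactose handling.

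B4galt1 (chromosome 4, 40804602 to 40854005, minus strand) encodes β-1,4-galactosyltransferase 1, the catalytic part of lactose synthase, which elsewhere adds galactose to glycoproteins. Its level in ER- luminal cells was 2738 and 2714 at puberty, 4172 and 3571 in adults and 9266 and 11599 in pregnancy. The ER+ luminal cells had 4599 and 5773 at puberty, 4367 and 4908 in adults and 6234 and 10369 in pregnancy. Basal cells had 1573 and 2161 at puberty, 2678 and 2025 in adults and 3112 and 4259 in pregnancy. In each population both pregnancy libraries were above all 4 earlier libraries. Pregnancy ER- luminal cells had the highest group mean (10432.5 ± 1649.7, SD, n = 2) and overlapped the next, pregnancy ER+ luminal cells (8301.5 ± 2923.9).

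B4galt1 rose in pregnancy ER- luminal cells by 1.93 ± 0.24 on the log2 scale over puberty (limma adjusted p = 0.000168) and by 1.43 ± 0.24 over adulthood (limma adjusted p = 0.0019), and both calls held when any library of the compared groups was left out. Without library 2 of pregnancy ER- luminal cells these were 1.76 (limma adjusted p = 0.00604) and 1.26 (limma adjusted p = 0.039). For ER+ luminal cells the increase over adulthood was called (0.80 ± 0.24, limma adjusted p = 0.0318) and that over puberty was not (0.64 ± 0.24, limma adjusted p = 0.0963; 1.01 and 0.0182 without library 1 of pregnancy ER+ luminal cells). The ER+ call ended without library 2 of pregnancy ER+ luminal cells (0.43, limma adjusted p = 0.335), without library 1 (limma adjusted p = 0.136) or library 2 of adult ER+ luminal cells (limma adjusted p = 0.0807), with median-ratio size factors (limma adjusted p = 0.0545) and in a fit of those groups alone (limma adjusted p = 0.216). That pregnancy ER+ library, with 10369 for B4galt1, also had 42132 in summed ER- luminal markers against 18197 in the other, and the part of ER- cells in its level was not tested.

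In basal cells B4galt1 rose in pregnancy against puberty by 0.98 ± 0.24 (limma adjusted p = 0.0477), close to the threshold. The call ended without any 1 of the 4 libraries, at adjusted p of 0.0592 to 0.391, with median-ratio size factors (limma adjusted p = 0.0565), in a fit of those groups alone (limma adjusted p = 0.0557) and without the 4 adult luminal libraries (limma adjusted p = 0.0776). The milk protein markers summed to 228528 and 322362 in pregnancy basal cells, against 3435 and 4057 in puberty basal cells, and their part in the B4galt1 level of basal cells was not tested. The difference between ER+ and ER- luminal cells in the effect of pregnancy over puberty was -1.29 ± 0.34 (limma adjusted p = 0.0632), which was -1.12 without library 2 of pregnancy ER- luminal cells (limma adjusted p = 0.252) and -1.65 without library 2 of pregnancy ER+ luminal cells (limma adjusted p = 0.0206). In that comparison of effects limma called 0 of the 8 genes, with 5 at an unadjusted p under 0.05, and edgeR called 0. Of all genes limma called 2.31% at an adjusted p, while 3380 of 22315 had an unadjusted edgeR p under 0.05. For basal minus ER- luminal effects over puberty limma also called 0, with 3 at an unadjusted p under 0.05, and edgeR called 0. There limma called 0.627% of all genes at an adjusted p, while 2862 had an unadjusted edgeR p under 0.05.

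The luminal populations were also compared within each stage for B4galt1. ER+ luminal cells had more than ER- luminal cells at puberty (0.92 ± 0.24, limma adjusted p = 0.0189), a difference of 0.26 ± 0.24 in adults (limma adjusted p = 0.495) and of -0.37 ± 0.24 in pregnancy (limma adjusted p = 0.549). The puberty call ended without library 1 (limma adjusted p = 0.0859) or library 2 of puberty ER- luminal cells (limma adjusted p = 0.109) or library 2 of puberty ER+ luminal cells (limma adjusted p = 0.202). Basal cells had less than ER- luminal cells in pregnancy (-1.51 ± 0.24, limma adjusted p = 0.000713), also without library 2 of pregnancy ER- luminal cells (-1.35, limma adjusted p = 0.019). The same comparison in adults was called at -0.73 ± 0.24 (limma adjusted p = 0.0486) but ended under 5 other settings, for example with edgeR (adjusted p = 0.108), and without library 1 (limma adjusted p = 0.222) or library 2 of adult ER- luminal cells (limma adjusted p = 0.088) or library 2 of adult basal cells (limma adjusted p = 0.32). Gene-level values do not separate the alternative start sites of B4galt1.

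Lalba, the partner of B4galt1 in lactose synthase, had a different pattern. Among ER- luminal cells it stood at 4047 and 4924 at puberty, 532 and 1015 in adults and 714 and 905 in pregnancy. Its level in ER+ luminal cells was 376 and 166 at puberty, 39 and 132 in adults and 294 and 637 in pregnancy, and in basal cells 37 and 195 at puberty, 1000 and 849 in adults and 191 and 259 in pregnancy. The puberty ER- libraries were the highest of the 18, while the same libraries had the 2 lowest B4galt1 levels of the luminal libraries. The pregnancy difference from puberty in ER- luminal cells was -2.47 ± 0.77 (limma adjusted p = 0.053), which missed the threshold. Lalba rose in pregnancy ER+ luminal cells over adult ones by 2.57 ± 0.77 (limma adjusted p = 0.0398), a call that ended without library 1 of adult ER+ luminal cells (limma adjusted p = 0.218), library 1 (limma adjusted p = 0.0559) or library 2 of pregnancy ER+ luminal cells (limma adjusted p = 0.234), and with edgeR (adjusted p = 0.0606).

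**Figure D3:**
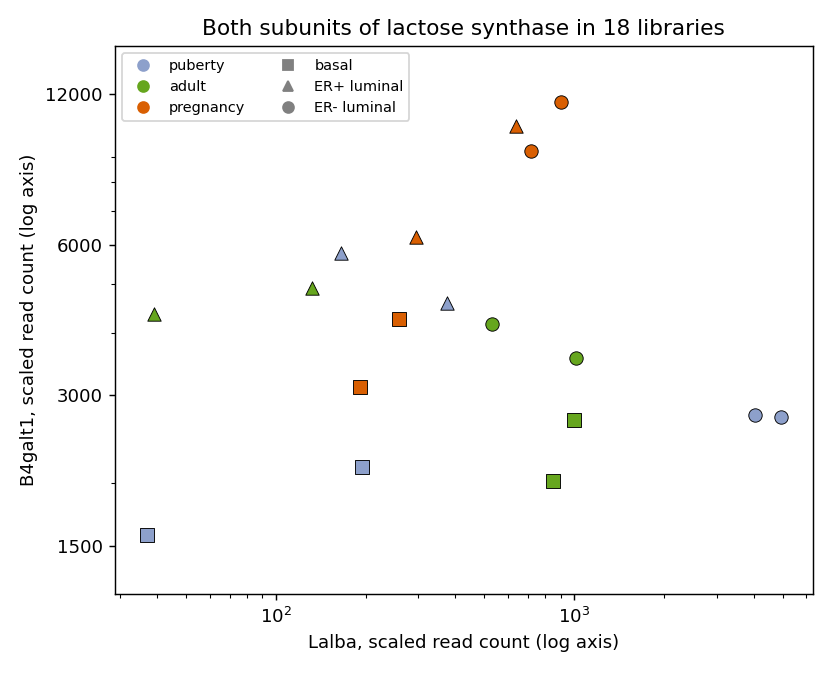
B4galt1 (vertical, log axis) against Lalba (horizontal, log axis) in scaled read counts, with 1 point for each of the 18 libraries, stage by colour and population by symbol. The puberty ER- libraries lie at the far right (Lalba 4047 and 4924, B4galt1 2738 and 2714), and the pregnancy ER- libraries near the top with lower Lalba (714 and 905, B4galt1 9266 and 11599).

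Folr1 (chromosome 7, 101858331 to 101870788, minus strand) encodes folate receptor α, which binds folate at the cell surface. Its level in ER- luminal cells was 546 and 664 at puberty, 423 and 295 in adults and 1000 and 1266 in pregnancy. The ER+ luminal cells had 90 and 96 at puberty, 63 and 83 in adults and 400 and 976 in pregnancy. Basal cells had 13 and 28 at puberty, 659 and 150 in adults and 191 and 335 in pregnancy. The pregnancy ER- libraries were the 2 highest, the puberty basal libraries the 2 lowest, and the adult basal libraries were far apart. By group mean the order ran from pregnancy ER- luminal cells (1133 ± 188.1, SD, n = 2) to puberty basal cells (20.5 ± 10.6), and the groups between pregnancy ER+ luminal (688 ± 407.3) and pregnancy basal cells (263 ± 101.8) each overlapped the next. The values rested on 6 to 378 recovered reads.

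Folr1 rose in pregnancy ER+ luminal cells, by 3.09 ± 0.60 on the log2 scale over adulthood (limma adjusted p = 0.003) and by 2.74 ± 0.60 over puberty (limma adjusted p = 0.00748). The first ended in a fit of those groups alone (limma adjusted p = 0.102) and the second without library 2 of puberty (limma adjusted p = 0.0523) or of pregnancy ER+ luminal cells (limma adjusted p = 0.0934). In pregnancy the library with 976 for Folr1 was the one with 42132 in summed ER- luminal markers, and the one with 400 had 18197; the part of ER- cells was not tested. The increase in ER- luminal cells was not called over puberty (0.90 ± 0.60, limma adjusted p = 0.35) or adulthood (1.67 ± 0.60, limma adjusted p = 0.0768), but was in fits of the compared groups alone (limma adjusted p = 0.0331 and 0.019).

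In basal cells Folr1 rose in pregnancy against puberty by 3.66 ± 0.60 (limma adjusted p = 0.00737), a call that ended without library 1 of puberty basal cells (limma adjusted p = 0.0731) or library 2 of pregnancy basal cells (limma adjusted p = 0.0993). The ER- luminal markers summed to 11529 and 18333 in pregnancy basal cells, against 1748 and 3884 at puberty, and the milk protein markers moved there as given for B4galt1. Puberty basal cells also had less than adult basal cells (-3.97 ± 0.60, limma adjusted p = 0.00181), which ended in a fit of those groups alone (limma adjusted p = 0.0565). The adult basal library with 659 for Folr1 had 223696 in summed milk protein markers and 20747 in ER- luminal markers, and the one with 150 had 34044 and 9940, and the part of luminal cells in these basal levels was not tested. Puberty comparisons called 2 of the 8 genes in basal cells against adulthood (Slc2a1 and Folr1, with 9.73% of all genes called). Among ER- luminal cells limma called 0, with 3 at an unadjusted p under 0.05, and edgeR called 1. Of all genes limma called 3.66% there at an adjusted p, while 3989 of 22315 had an unadjusted edgeR p under 0.05. Among ER+ luminal cells limma called 0, with 1 at an unadjusted p under 0.05, and edgeR called 0. There limma called 5.73% of all genes at an adjusted p, while 3862 had an unadjusted edgeR p under 0.05.

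Folr1 was called lower in the other population in 4 of 6 comparisons with ER- luminal cells. ER+ luminal cells had less than ER- luminal cells at puberty (-2.68 ± 0.60, limma adjusted p = 0.00821) and in adults (-2.27 ± 0.60, limma adjusted p = 0.0189), and basal cells had less at puberty (-4.90 ± 0.60, limma adjusted p = 6.27e-05) and in pregnancy (-2.15 ± 0.60, limma adjusted p = 0.0236). In pregnancy ER+ luminal cells the log2 fold change was -0.85 ± 0.60 with no overlap of the groups (limma adjusted p = 0.587), and in adult basal cells it was -0.17 ± 0.60 (limma adjusted p = 0.893), where the mean of the scaled read counts was higher in basal cells (404.5 against 359). The puberty ER+ call ended without library 2 of puberty ER- (limma adjusted p = 0.0696) or ER+ luminal cells (limma adjusted p = 0.0611). The adult ER+ call ended without any 1 of its 4 libraries, at adjusted p of 0.0551 to 0.105, in a fit of those groups alone (limma adjusted p = 0.0903) and with edgeR (adjusted p = 0.0773). The pregnancy basal call ended without library 1 (limma adjusted p = 0.0517) or library 2 of pregnancy ER- luminal cells (limma adjusted p = 0.157) or library 1 of pregnancy basal cells (limma adjusted p = 0.181). The puberty basal call held without any of its 4 libraries.

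Counted over the 8 genes, ER+ against ER- luminal cells gave 3 calls at puberty (Ugp2, B4galt1 and Folr1, with 12.4% of all genes called) and 2 in adults (Ugp2 and Folr1, with 17.0%). In pregnancy limma called 0, with 2 at an unadjusted p under 0.05, and edgeR called 0. Of all genes limma called 1.85% there at an adjusted p, while 3052 of 22315 had an unadjusted edgeR p under 0.05. Basal against ER- luminal cells gave 4 calls at puberty (Slc2a1, Hk1, Ugp2 and Folr1, all lower, with 17.8% of all genes called). In adults it gave 3 (Slc2a1 and Hk2 higher, B4galt1 lower, with 17.4%), and in pregnancy 5 (Slc2a1, Hk1, Hk2, B4galt1 and Folr1, all lower, with 18.6%). These shares count both directions. In pregnancy the median log2 fold change over all genes there was -0.2, and 0.0 with median-ratio size factors. With those factors 2362 genes were called higher and 1146 lower, and library 2 of pregnancy ER- luminal cells had a factor of 1.2284. Without that library the 5 log2 fold changes were -0.69, -0.55, -1.17, -1.35 and -1.98, in the order named. As given under each gene, the calls of Slc2a1, Hk1, Hk2 and Folr1 ended without it, while that of B4galt1 held. The effect of pregnancy over adulthood in ER+ minus ER- luminal cells gave 0 calls by limma, with 4 at an unadjusted p under 0.05, and 0 calls by edgeR. Of all genes limma called 2.07% there at an adjusted p, while 2588 of 22315 had an unadjusted edgeR p under 0.05.

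Other genes on or near the way to lactose and UDP-galactose were taken from a list of 18. In pregnancy against puberty ER- luminal cells 3 of the 18 were higher and none lower, where 8.78% of all genes were called higher and 6.04% lower (1960 and 1347 genes; 1503 and 1962 with median-ratio size factors). Atp2c2, a secretory pathway pump for calcium and manganese, stood at 778 and 1089 in pregnancy ER- luminal cells, against 177 and 186 at puberty (2.34 ± 0.33, limma adjusted p = 0.000407). Slc35b1, a carrier of the endoplasmic reticulum related to the UDP-galactose carrier, stood at 858 and 1014 in pregnancy, against 437 and 486 at puberty (1.02 ± 0.18, limma adjusted p = 0.00179). Both calls held without any of the 4 libraries, and the groups did not overlap. Tmem165, a Golgi manganese carrier needed by galactosyltransferases, stood at 916 and 1457 in pregnancy, against 763 and 665 at puberty (0.70 ± 0.21, limma adjusted p = 0.0394). Its call ended without library 2 of pregnancy ER- luminal cells (limma adjusted p = 0.367) and without library 1 (limma adjusted p = 0.0838) or library 2 of puberty ER- luminal cells (limma adjusted p = 0.249). It also ended with no filter (limma adjusted p = 0.0551), with quantile normalization (limma adjusted p = 0.0579) and in a fit of those groups alone (limma adjusted p = 0.114). The 3 called genes encode carriers or pumps, and no enzyme of the list was called in this fit. The list had a median log2 fold change of 0.39, against 0.03 over all genes. Under other settings some route genes were also lower, with 3 higher and 2 lower both with median-ratio size factors and without the 4 adult luminal libraries, and 3 higher and 3 lower by edgeR.

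For Atp2c2 the effect of pregnancy differed between populations. In ER+ luminal cells it stood at 478 and 727 in pregnancy, against 708 and 934 at puberty, and the difference of the pregnancy effects, ER+ minus ER- luminal, was -2.80 ± 0.47 (limma adjusted p = 0.00506), and -2.56 without library 2 of pregnancy ER- luminal cells (limma adjusted p = 0.0419). Slc35b1 rose in ER+ luminal cells as well (0.85 ± 0.18, limma adjusted p = 0.00446; 0.0535 in a fit of those groups alone). Against adult ER- luminal cells, 2 of the 18 genes were called, both higher in pregnancy, where 14.4% of all genes were called in either direction. Atp2c2 was at 1.85 ± 0.33 (limma adjusted p = 0.00274), and at 1.60 without library 2 of pregnancy ER- luminal cells. Slc35b1 was at 0.80 ± 0.18 (limma adjusted p = 0.00928), and at 0.68 without that library. The Slc35b1 call ended without library 2 of adult or of pregnancy ER- luminal cells. It also ended in a fit of those groups alone (limma adjusted p = 0.0887).

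**Figure D4:**
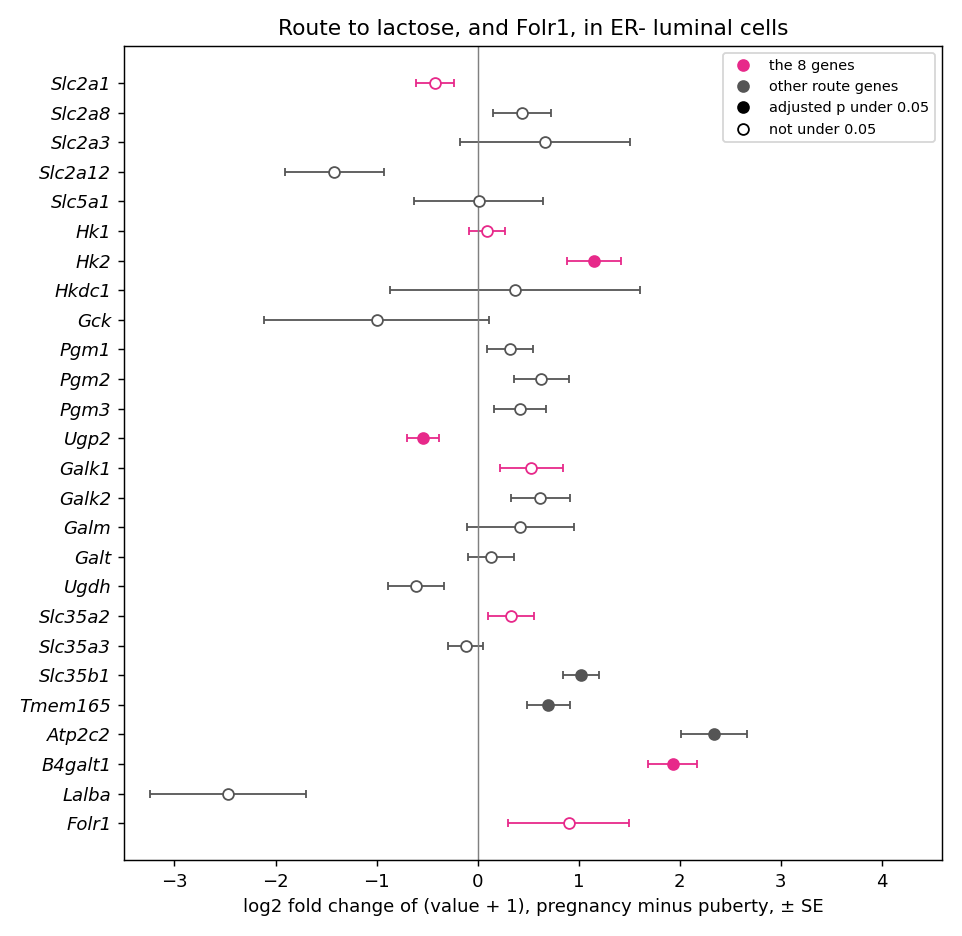
Log2 fold change in pregnancy against puberty ER- luminal cells with its limma standard error. Shown are the 8 genes (pink) and the 18 other genes on or near the route (grey). They are listed from glucose entry down to lactose synthase, with Folr1 last. Filled points have an adjusted p under 0.05. Atp2c2 (2.34) and B4galt1 (1.93) are farthest to the right and Lalba (-2.47, not called) farthest to the left.

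Neighbouring pathways that draw on the same glucose were counted in the same comparison of pregnancy with puberty ER- luminal cells. In it 8.78% of all genes were called higher and 6.04% lower, with a median log2 fold change of 0.03 over all genes. Of 14 glycolysis genes 3 were higher (Gpi1, Pfkl and Pgam1) and 1 lower (Pfkp), with a median log2 fold change of 0.55. Of 7 genes of the pentose phosphate pathway, which makes NADPH and ribose from glucose 6-phosphate, 3 were higher (Pgls, Pgd and Taldo1) and none lower, with a median of 1.15. Taldo1, the transaldolase, stood at 3839 and 4101 in pregnancy, against 1560 and 1428 at puberty (1.41 ± 0.37, limma adjusted p = 0.0229), a call that ended without any 1 of the 4 libraries, at adjusted p of 0.0657 to 0.142. Of 7 glycogen genes 1 was higher (Pygb) and 1 lower (Pygl), with a median of -0.04. Of 6 other galactosyltransferases of the B4galt family 1 was higher (B4galt3, 0.68 ± 0.21, limma adjusted p = 0.0383, with edgeR 0.0538) and none lower, and among 7 other members of the GLUT family 1 was higher and none lower. That was Slc2a9, known as a urate carrier, at 1609 and 1923 in pregnancy, against 187 and 130 at puberty (3.49 ± 0.63, limma adjusted p = 0.00345).

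Of 13 folate genes 4 were higher in this comparison (Fpgs, Shmt1, Shmt2 and Mthfd1) and 1 lower (Ggh), with a median of 1.09. Among all genes 8.78% were called higher and 6.04% lower, with a median of 0.03. Fpgs, which adds glutamates to folate and so retains it in the cell, stood at 539 and 894 in pregnancy ER- luminal cells, against 279 and 257 at puberty (1.37 ± 0.24, limma adjusted p = 0.00191), and Ggh, which removes them, at 270 and 444 in pregnancy, against 767 and 956 at puberty (-1.30 ± 0.29, limma adjusted p = 0.0079). The groups overlapped for neither gene. The Fpgs call held without any of the 4 libraries, and that of Ggh ended without library 2 of puberty (limma adjusted p = 0.0994) or library 1 of pregnancy ER- luminal cells (limma adjusted p = 0.0711). Of the 18 named genes of these lists, 5 were still called without library 2 of pregnancy ER- luminal cells (Atp2c2, Slc35b1, Slc2a9, Fpgs and Ggh) and 13 were not. Without library 2 of puberty ER- luminal cells 4 were still called and 14 were not. The count of folate genes depended on the libraries fitted. It was 8 higher and 1 lower without the 4 adult luminal libraries and 7 higher and 1 lower in a fit of the compared groups alone. It was 1 higher and none lower without library 2 of puberty, 3 and none without library 1 of pregnancy, and 1 and 1 without library 2 of pregnancy ER- luminal cells.

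In pregnancy against puberty ER+ luminal cells 7.34% of all genes were called higher and 5.73% lower (1637 and 1279 genes), with a median log2 fold change of 0.13 over all genes. Of 14 glycolysis genes 4 were higher (Pfkl, Aldoc, Ldha and Ldhb; median 0.43), of 6 B4galt genes 2 (B4galt5 and B4galt6; median 0.85) and of 13 folate genes 2 (Shmt1 and Shmt2; median 0.64), with none lower in these lists. Of the 18 route genes 2 were higher there (Slc5a1 and Slc35b1) and 2 lower (Pgm1 and Slc35a3). Those of these genes not called in ER- luminal cells are named after their values were seen. In a fit of those groups alone the glycolysis count was 2, that of the B4galt family 1 and that of the route 0. Without library 2 of pregnancy ER+ luminal cells they were 2, 1 and 1, without library 2 of puberty ER+ luminal cells 2, 1 and 2, and without library 1 of puberty the glycolysis and route counts were 2 each. The folate count was 6 without the 4 adult luminal libraries, 1 with no filter, 1 without library 1 of either group and 0 without library 2 of either group.

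Markers of ER- luminal and basal cells were also higher in these pregnancy ER+ libraries. Of 6 ER- luminal markers 3 were called higher there (Elf5, Ehf and Rspo1), where 7.34% of all genes were, with the sums of 18197 and 42132 given above. Of 8 basal markers 5 were called higher, with sums of 31928 and 26018 in pregnancy, against 12236 and 880 at puberty. Slc5a1, a sodium-coupled glucose carrier, stood at 437 and 1347 in pregnancy ER+ luminal cells, against 140 and 88 at puberty, and was at 1424 to 2114 in every ER- luminal library. Ldhb, a subunit of lactate dehydrogenase, stood at 584 and 1076 in pregnancy ER+ luminal cells, against 162 and 86 at puberty, Aldoc, an aldolase, at 1806 and 2380, against 725 and 619, and B4galt6 at 197 and 356, against 124 and 47. Each of these 4 genes was higher in the pregnancy ER+ library with more ER- luminal marker counts. B4galt5 ran the other way, at 1469 and 733 in pregnancy ER+ luminal cells, against 73 and 65 at puberty. The part of other cells in these levels was not tested.

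Pfkl, the liver form of phosphofructokinase, was called in both luminal populations, at 1313 and 2174 in pregnancy ER+ luminal cells, against 835 and 828 at puberty (1.02 ± 0.28, limma adjusted p = 0.0225), and at 2379 and 3260 in pregnancy ER- luminal cells, against 1589 and 1128 at puberty (1.06 ± 0.28, limma adjusted p = 0.0187). Its ER+ call ended without library 1 (limma adjusted p = 0.0805) or library 2 of puberty ER+ luminal cells (limma adjusted p = 0.118), without library 2 of pregnancy ER+ luminal cells (limma adjusted p = 0.268) and in a fit of those groups alone (limma adjusted p = 0.101), and its ER- call without library 2 of puberty (limma adjusted p = 0.2) or of pregnancy ER- luminal cells (limma adjusted p = 0.181).

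Pygl, the liver form of glycogen phosphorylase, went opposite ways in the luminal populations. In ER+ luminal cells it stood at 1659 and 853 in pregnancy, against 178 and 104 at puberty (3.12 ± 0.39, limma adjusted p = 8.88e-05), and in ER- luminal cells at 91 and 106 in pregnancy, against 283 and 236 at puberty (-1.39 ± 0.39, limma adjusted p = 0.0251). The difference of the effects, ER+ minus ER- luminal, was 4.51 ± 0.55 (limma adjusted p = 0.000612), and 4.61 without library 2 of pregnancy ER- luminal cells (limma adjusted p = 0.00536). The ER- call ended without any 1 of its 4 libraries, at adjusted p of 0.0973 to 0.13.

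Markers of other cells moved alongside these pregnancy changes in ER- luminal cells. In pregnancy against puberty, 4 of 8 basal markers and 3 of 5 macrophage markers were called higher, where 8.78% of all genes were. Of 7 adipocyte markers 5 were called lower, where 6.04% of all genes were. These marker counts were not recomputed without library 2 of pregnancy ER- luminal cells. The basal markers summed to 38186 and 35618 in pregnancy ER- luminal cells, against 3057 to 13467 at puberty, and the adipocyte markers to 1917 to 2079, against 19276 and 3432 at puberty, with Retn at 0 in pregnancy. The 8 ER+ luminal markers summed to 6618 and 7671 in pregnancy ER- luminal cells, against 21346 and 17932 at puberty, without overlap and with none of the 8 called. The 6 milk protein markers summed to 666305 and 83395 in pregnancy, against 48927 and 57747 at puberty. The B4galt1 levels of these 2 pregnancy libraries were 9266 and 11599. The lower milk protein sum is that of library 2, which stood apart as given above. Its top 50 genes held 6.76% of its total, against 17.4% in library 1. Gm26917, the top gene of library 1 at 409585, stood at 45549 in library 2. The median-ratio size factor was 1.2284 for library 2, against 1.0171 for library 1. How B4galt1 goes with milk protein transcripts was not tested. The part of other cells in the gene levels was not tested.

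For each gene, the 3 tested genes whose 9 group means of log2(scaled read count + 1) followed it most closely were listed among 10501 genes, as a description over 9 groups. B4galt1 was followed by Slc25a10 (the mitochondrial dicarboxylate carrier, Pearson 0.991), Fgfr1op (0.987) and Reep4 (0.979). Folr1 was followed by Atp10b (0.979), Btn1a1, the butyrophilin of the milk fat globule membrane (0.976), and Slc28a3, a nucleoside carrier (0.969). For Slc2a1 they were Arih1 (0.944), Lemd3 (0.926) and Naf1 (0.92), for Hk1 Copb1 (0.942), Psme1 (0.936) and H2-Q2 (0.936), and for Hk2 Cul2 (0.916), Rrp9 (0.888) and Fam104a (0.879). For Ugp2 they were Chchd7 (0.956), AW011738 (0.947) and Tdrd7 (0.942), for Slc35a2 Necap1 (0.972), Tmem234 (0.967) and Rab15 (0.956), and for Galk1 Phf12 (0.959), Papola (0.951) and Ap2a1 (0.943). Without library 2 of pregnancy ER- luminal cells 13 of these 24 genes were still among the first 3, all 3 of those for B4galt1 and none for Hk2, whose values were 0.653 to 0.761.

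Among themselves the 8 genes did not share 1 pattern over the 9 group means. Hk1 and Slc35a2 were the closest pair (Pearson 0.89), followed by B4galt1 and Slc35a2 (0.75). Slc2a1 and Galk1 ran opposite (-0.72), as did Ugp2 and Galk1 (-0.61), and Slc2a1 and B4galt1 were nearly unrelated (-0.14). Hk1 and Hk2 stood at 0.31. In the same order, these 6 values were 0.87, 0.70, -0.77, -0.64, -0.23 and 0.22 without library 2 of pregnancy ER- luminal cells.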

How the data were processed

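RNA-seq of sorted mammary cells was taken from 1 table of the whole series, in which 46868 rows hold 46257 gene IDs. Per the labels' protocols, the RNeasy micro kit gave the RNA and Ovation Solo the indexed libraries. Per the submitters' processing notes, STAR, Picard and HTSeq were used with GRCm38; no source used here gives versions, strand or annotation. The authors deposited whole numbers that are a signal on a common scale, read counts brought to nearly the same total in each library; this scaling was inferred from the values. Inverting it on library-specific steps returned 99.77% to 99.95% of non-zero values exactly, against 12.1% to 57.0% by chance, with 1 read worth 1.75 to 8.25. The steps were chosen by their exact returns on these same values, and the share by chance is that of a step not so chosen. A strict test of the steps was met in 3 libraries. Where several rows shared an ID, the row with the highest mean was kept.

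The 22315 genes that reached 10 in 2 or more libraries were fitted with limma 3.58.1 (R 4.3.3, trend and robust) on log2(value + 1), with all 9 groups in 1 model, and p-values were adjusted by Benjamini-Hochberg over all of them. The fit was tested on simulated counts, with the same setting of spread for all genes and no library standing apart. That test does not give the rate of false calls in these data. Alternatives were a pseudocount of 8, no filter, a minimum of 100, median-ratio size factors, quantile normalization, the compared groups only, a replicate block, edgeR 4.0.16 with TMM on recovered reads, each library left out, and, chosen after seeing the data, no adult luminal libraries. The 8 genes, the gene lists and the tests were chosen with earlier results of these data known. The text names all 8 genes, the 3 genes nearest to each in pattern, Lalba, and up to 4 called genes of each pathway list in pregnancy against puberty ER- luminal cells; Shmt1 is named besides. Gene positions are those of GENCODE vM21, and the promoter windows are those of RefSeq on GRCm38.p6. The cell type field of the puberty and pregnancy basal samples also calls them luminal, and the sample titles were followed. A gene of the lactose route list is not reported here.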

Additional observations from a re-analysis of the deposited data

Results flagged for a closer look

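For Slc2a1 the effect of pregnancy against adulthood differed between basal and ER- luminal cells, by -1.87 ± 0.27 on the log2 scale (basal minus ER- luminal, limma adjusted p = 0.00226), in a direct test of the difference. In basal cells its level was 1456 and 1133 in pregnancy, against 3321 and 4463 in adults, and in ER- luminal cells 2076 and 2719 in pregnancy, against 1745 and 2174 in adults.

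For Hk2 the same difference was -2.34 ± 0.39 (limma adjusted p = 0.00648). In basal cells its level was 1143 and 1186 in pregnancy, against 2583 and 1880 in adults, and in ER- luminal cells 2625 and 3038 in pregnancy, against 1180 and 940 in adults. Both differences were called under each of the 8 other settings and without each of the 8 libraries, at adjusted p of up to 0.024 for Slc2a1 and 0.048 for Hk2. Between pregnancy and adult basal cells the basal markers also differed, at 308176 and 305543 in pregnancy, against 154364 and 141611 in adults. So did the fibroblast markers, at 137067 and 126127 in pregnancy, against 13055 and 8154 in adults. Endothelial markers summed to 4336 and 3650 in pregnancy basal cells, against 8134 and 10503 in adult ones. Milk protein markers summed to 228528 and 322362 in pregnancy basal cells, against 223696 and 34044 in adult ones. ER- luminal markers summed to 11529 and 18333 in pregnancy basal cells, against 20747 and 9940 in adult ones. The part of all these in the Slc2a1 and Hk2 differences was not tested.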

How the results depend on the processing

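The 33 called values of the 8 genes were recomputed 425 times. In 341 of these the value kept its direction and its call, in 84 it kept its direction without a call, and in 0 it turned round. Of 255 recomputed counts of called genes, 205 stayed within 1.5 times the reported count.

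In pregnancy against puberty the count in ER+ luminal cells was 2 in place of 1 with a minimum of 100, median-ratio size factors and edgeR, and in basal cells 1 in place of 2 with median-ratio size factors, the compared groups only and no adult luminal libraries. In pregnancy against adulthood it was 1 in ER+ luminal cells with median-ratio size factors and 0 with the compared groups only, in place of 2, and 2 in basal cells in place of 1 with a pseudocount of 8, a minimum of 100 and quantile normalization. In puberty against adulthood it was 1 in ER- luminal cells in place of 0 with a pseudocount of 8, a minimum of 100, the replicate block and edgeR, and 1 in basal cells in place of 2 with the compared groups only. In adults the compared groups only gave 0 in place of 2 for ER+ against ER- luminal cells, where edgeR gave 1, and 0 in place of 3 for basal against ER- luminal cells. For the difference of pregnancy against puberty effects it was 1 in place of 0 for ER+ minus ER- luminal cells with a pseudocount of 8 and the replicate block, and for basal minus ER- luminal cells with the compared groups only. The cause of these moves was not tested, except that a fit of the compared groups only has fewer libraries.

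Leaving out 1 library at a time gave counts of 1 to 2 in ER- luminal cells, 0 to 2 in ER+ luminal cells and 0 to 1 in basal cells for pregnancy against puberty. For pregnancy against adulthood they were 1 to 3 in ER- luminal, 1 to 2 in ER+ luminal and 1 to 2 in basal cells, and for puberty against adulthood 0 in both luminal populations and 2 to 3 in basal cells. For ER+ against ER- luminal cells they were 0 to 2 at puberty, 0 in adults and 0 in pregnancy, and for basal against ER- luminal cells 2 to 3 at puberty, 1 to 2 in adults and 1 to 4 in pregnancy. For the differences of effects they were 0 to 1 for ER+ minus ER- over puberty, 0 for basal minus ER- over puberty, 0 for ER+ minus ER- over adulthood and 2 for basal minus ER- over adulthood. A lone library left in a group is assumed to vary like the other groups.

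The labels number the libraries 1 and 2 in each group. Over 36 pairs of groups the deviations of same-numbered libraries correlated at -0.09 to 0.27, with 1 pair over 0.1. The numbers were not taken as pairs. The pair over 0.1 was puberty ER- with puberty ER+ luminal cells, the groups of a reported comparison. Adipocyte markers in their libraries 1 and 2 summed to 19276 and 3432 in ER- and 13394 and 2212 in ER+ luminal cells. Fibroblast markers summed to 12870 and 57948 in ER- and 13230 and 47953 in ER+ luminal cells. The replicate block is shared by all stages, so it cannot decide on a pairing within puberty, which was not modelled. With the block all 33 values kept their call. The folate list then had 8 called genes in place of 5 in ER- and 4 in place of 2 in ER+ luminal cells. In pregnancy against puberty ER- luminal cells edgeR called 1802 genes higher and 2105 lower, against 1960 and 1347 by limma. Median-ratio size factors moved the median of all genes there from 0.03 to -0.11. Depth was lowest in the adult luminal libraries, where Folr1 rested on 8 to 62 recovered reads.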
